A study of Mus musculus with 12 samples.

Results

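The genes described here are ligands of NKG2D, the activating receptor of natural killer (NK) cells and some T cells. The list holds 8 mouse genes, *H60b*, *H60c*, *Raet1a*, *Raet1b*, *Raet1c*, *Raet1d*, *Raet1e* and *Ulbp1*, found by gene symbol in the platform annotation. The list was chosen by the log2 changes after *Kdm6a* RNAi in the female line PGK12.1, where *H60b* and *Raet1d* were among the largest rises. Of the 8 genes, 2 had a probe set: *H60b* (probe set 10362097) and *Raet1d* (probe set 10362091), 1 each and shared with no other gene symbol. Both passed the minimum mean level of 0.1 times the array mean, as did 15329 of all 19938 genes measured. The other 6 were on no listed probe set by symbol, gene identifier or accession, and are not analysed here.

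NKG2D ligands are cell surface proteins related to MHC class I molecules. They are scarce on most healthy adult cells and are known to appear on stressed, infected or transformed cells, which NK cells can then kill. In the mouse they form the H60 family, the RAE-1 family encoded by the *Raet1* genes, and MULT1, encoded by *Ulbp1*. RAE-1 stands for retinoic acid early inducible, since these transcripts were first found in embryonal carcinoma cells treated with retinoic acid, and RAE-1 proteins are held in the membrane by a GPI anchor. KDM6A, the target of the RNAi, is an X-linked histone demethylase that removes the repressive methyl mark H3K27me3.

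RNA was measured on 12 arrays in undifferentiated ES cells of 2 lines: PGK12.1, a female line from blastocysts of a 129 female and a (129 X PGK)F1 male, and WD44, a male line from BL6 blastocysts, both at passages 14 to 18. Each experiment had 1 array of cells given *Kdm6a* siRNAs (Invitrogen Stealth; the study's methods describe a pool of siRNAs against several places of the mRNA) and 1 array of cells given negative control siRNAs, with 4 experiments in PGK12.1 and 2 in WD44. Single RNAi used 100 pmol of siRNA and harvest after 48 h (experiments 3 and 4 of PGK12.1 and both of WD44). Double RNAi added 400 pmol for another 24 h (experiments 1 and 2 of PGK12.1). All cells had been grown with LIF on feeder fibroblasts, which were depleted on gelatin before the RNAi. With 1 line of each sex, sex and strain cannot be told apart.

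*H60b* lies at chr10:22273474-22288849 and *Raet1d* at chr10:22361861-22374143 of GRCm38.p6 in the RefSeq annotation, with 73.0 kb between them, and *Raet1e* lies before both at chr10:22158542-22189697. *Ulbp1* (chr10:7444873-7473641) and *H60c* (chr10:3256202-3268091) are elsewhere on the chromosome. *Raet1a*, *Raet1b* and *Raet1c* are not in this table, which describes C57BL/6J. The upstream sequence of *Raet1d* is shown with that of *Raet1e*, to let the likeness of a measured and an unmeasured family member be read (RefSeq, GRCm38.p6, plus strand, 5′ to 3′). *Raet1d* covers chr10:22361644-22361891 and *Raet1e*, before the second of its 2 listed starts, chr10:22173249-22173496. The starts used for these windows lie inside the genes as placed above. The *Raet1d* stretch thus runs past the first base of its gene, and the *Raet1e* stretch lies wholly within its gene. Capitals mark the bases that differ.
Raet1d: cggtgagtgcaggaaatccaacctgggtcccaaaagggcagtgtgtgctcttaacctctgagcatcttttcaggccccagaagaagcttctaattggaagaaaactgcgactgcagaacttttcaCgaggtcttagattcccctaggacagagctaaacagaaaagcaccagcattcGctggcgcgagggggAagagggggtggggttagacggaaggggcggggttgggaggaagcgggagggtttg
Raet1e: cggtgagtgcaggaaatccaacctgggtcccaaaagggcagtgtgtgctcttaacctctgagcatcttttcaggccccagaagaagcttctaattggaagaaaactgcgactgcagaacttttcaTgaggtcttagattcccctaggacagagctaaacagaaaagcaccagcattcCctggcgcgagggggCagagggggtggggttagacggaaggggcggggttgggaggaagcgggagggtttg
The differences, with the *Raet1d* base first and positions counted from 1 at the first base printed, were C126T, G178C and A193C. Over the RefSeq windows of 300 bases (250 before and 50 after the start), 295 of 298 aligned bases matched, or 99.0%. Before its other start, the *Raet1e* window matched that of *Raet1d* at 31.9% of aligned bases. No window was listed for *H60b*. The probe sequences were not used here, so how far the *Raet1d* probe set takes signal from *Raet1e* or from *Raet1* genes of other strains, and the *H60b* probe set from *H60a*, cannot be told apart from its own signal. In RefSeq the long noncoding RNA Gm26740 spans *H60b*, and it was on no listed probe set.

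The *Raet1d* window was searched on both strands for 9 motifs. It held 1 CCAAT box (CCAAT, in 37.4% of 32851 windows of the same length), 1 GC box (GGGCGG, 35.7%) and 1 core of a heat shock element (GAANNTTC, 7.86%), and these 3 matches did not overlap. The second *Raet1e* window held the same 3. Neither window held a TATA box (TATAAA, 13.6%), an E2F site (TTTCGCGC, 0.323%, or TTTGGCGC, 0.514%), an AP-1 site (TGANTCA, 7.81%), a CRE (TGACGTCA, 1.79%) or an E-box (CANNTG, 72.3%). These are matches of letters in the C57BL/6J sequence, and PGK12.1 is of another strain.

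*Kdm6a* itself fell in every experiment. Its log2 changes (*Kdm6a* RNAi minus the control of the same number) were -1.27, -1.50, -1.42 and -0.96 in PGK12.1 and -0.94 and -0.92 in WD44. The mean of -1.29 in PGK12.1 (SE 0.0772), a decrease of 59.0%, passed the test of limma (adjusted p = 0.000292), and no *Kdm6a* RNAi level overlapped a control level. In WD44 the mean of -0.93 (95% interval -1.17 to -0.69) had an adjusted p of 0.129 in the same fit by limma. Array medians were 6.15 to 6.48 on the log2 scale in experiments 1 to 3 of PGK12.1 and 8.03 to 8.21 in experiment 4 and in WD44, so levels are given as multiples of the mean of the array, and changes within an experiment. The values for WD44 use a spread shared with PGK12.1. Nothing in the labels says that the 2 WD44 experiments were separate cultures, and their spread may be only technical.

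*H60b* encodes a glycoprotein of the H60 family that binds NKG2D. In PGK12.1 its level, as a multiple of the array mean, went from 0.171 to 0.422 in experiment 1, from 0.236 to 0.387 in experiment 2, from 0.117 to 0.174 in experiment 3 and from 0.25 to 0.476 in experiment 4. Each *Kdm6a* RNAi array was above its own control, but the groups overlapped, since the *Kdm6a* RNAi array of experiment 3 was below 2 of the controls. Of all genes, 0.581% had *Kdm6a* RNAi levels that were all above the control levels. The log2 changes were 1.32, 0.70, 0.57 and 0.93, which are 2.5, 1.62, 1.48 and 1.91-fold. Among the changes of all 15329 genes these ranked 1, 13, 31 and 4 from the highest. The mean log2 change was 0.88 (SD 0.33, n = 4, 95% interval 0.66 to 1.10), or 1.84-fold, the highest mean of all genes. Because *H60b* was chosen for this rise, the values are a description and no test is given. The interval takes no account of that choice and is not to be read as a test. Experiment 2 had the deepest *Kdm6a* loss and experiment 1 the largest rise of *H60b*. Whether the rise depends on the depth of the loss was not tested.

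*Raet1d* encodes RAE-1δ, a GPI-anchored NKG2D ligand of C57BL/6 mice. PGK12.1 is of another strain, and whether its signal comes from *Raet1d* itself was not tested. In PGK12.1 the level of the *Raet1d* probe set went from 0.425 to 0.663, from 0.598 to 0.824, from 0.294 to 0.472 and from 0.496 to 0.83 times the array mean in experiments 1 to 4. Each *Kdm6a* RNAi array was again above its own control, and the groups overlapped, with experiment 3 lowest in both. The log2 changes were 0.66, 0.45, 0.68 and 0.74, which are 1.58, 1.37, 1.6 and 1.67-fold and ranked 29, 137, 14 and 16 of all genes. They spread less between experiments than those of *H60b*. The mean log2 change was 0.63 (SD 0.13, n = 4, 95% interval 0.51 to 0.75), or 1.55-fold, at rank 9 and likewise with no test. This interval, too, takes no account of the choice of the gene. Of all genes tested, 9 (0.0587%), *H60b* and *Raet1d* among them, had a mean change in PGK12.1 at least as high as that of *Raet1d*, and 16.3% were higher in all 4 experiments, as both ligand genes were.

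**Figure D1:**
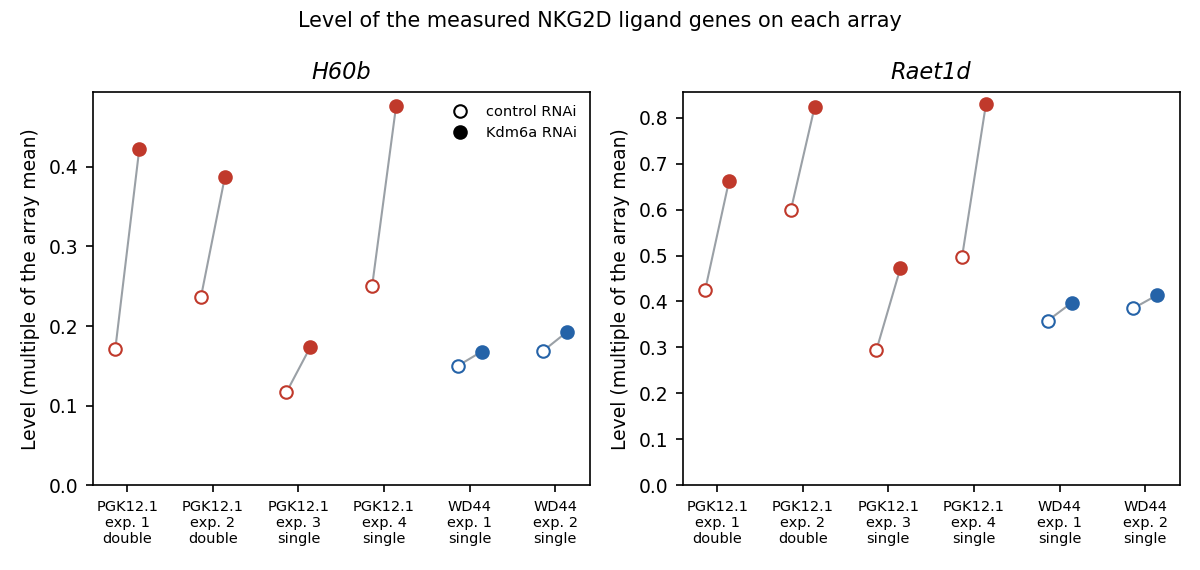
Level of *H60b* and *Raet1d* (vertical axis, multiple of the array mean) in each experiment of PGK12.1 (red) and WD44 (blue), with open points for control RNAi, filled points for *Kdm6a* RNAi and a line for each experiment. Every line rises, from 0.171 to 0.422 for *H60b* in experiment 1 of PGK12.1 and from 0.15 to 0.168 in experiment 1 of WD44.

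The place of both genes within each array showed the same. In the controls of PGK12.1, *H60b* stood between the percentiles 42.9 and 55.1 of all probe sets of the array, and after *Kdm6a* RNAi between 52.4 and 66.5. *Raet1d* stood between 62.5 and 72.9 in the controls and between 70.3 and 77.4 after *Kdm6a* RNAi. Both genes were thus near or above the middle of the arrays before the RNAi. The *H60b* controls were nonetheless at 0.117 to 0.25 times the array mean, not far above the minimum level of 0.1. The leukocyte marker *Cd3e* had a mean level of 0.264 over all arrays. How much of the *H60b* signal is background was not tested. In bulk RNA, more cells with the transcript and more transcript per cell cannot be told apart.

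In WD44, whose values were not used to choose the genes, neither ligand gene passed the test. *H60b* went from 0.15 to 0.168 in experiment 1 and from 0.169 to 0.193 in experiment 2, so that the groups overlapped. Its log2 changes of 0.15 and 0.18 gave a mean of 0.165 (SD 0.02, n = 2), or 1.12-fold, with a 95% interval of -0.15 to 0.48 (limma, adjusted p = 0.597). *Raet1d* went from 0.358 to 0.397 and from 0.385 to 0.414, and here the groups did not overlap, as for 28.0% of all genes. Its log2 changes of 0.13 and 0.09 gave a mean of 0.11 (SD 0.03, n = 2), or 1.08-fold, with an interval of -0.06 to 0.28 (limma, adjusted p = 0.501).

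Limma called 0.0% of all genes in WD44, with 2464 genes at an unadjusted p under 0.05. Both ligand genes were higher in both WD44 experiments, like 31.3% of all genes, and 19.4% had a mean change there at least as high as that of *Raet1d*. Over all 6 experiments, both ligand genes were higher each time, as were 3.88% of all genes. In a fit of the WD44 arrays alone, the adjusted p of limma was 0.283 for *H60b* and 0.299 for *Raet1d*. That fit called no gene, not even *Kdm6a* (-0.93, adjusted p = 0.283), so nothing is read from it about the ligand genes.

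**Figure D2:**
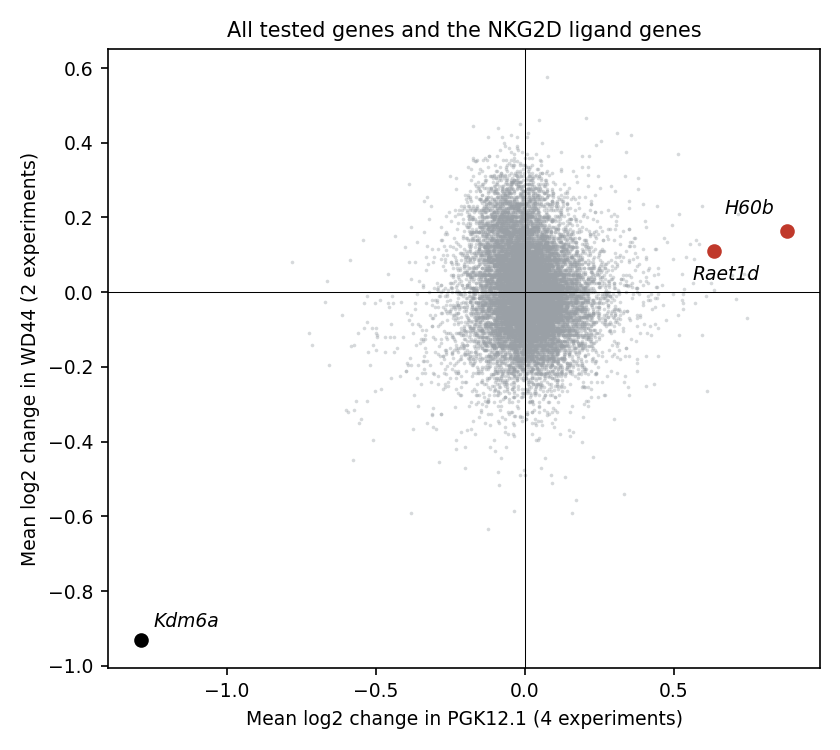
Mean log2 change after *Kdm6a* RNAi of each of the 15329 tested genes (grey points) in PGK12.1 (horizontal axis, 4 experiments) and in WD44 (vertical axis, 2 experiments). *H60b* (0.88 and 0.165) and *Raet1d* (0.63 and 0.11), in red, lie far to the right, for which they were chosen, and within the vertical range of the other genes. *Kdm6a* (black) lies at the lower left.

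Set side by side, the changes of both genes were larger in PGK12.1 than in WD44 in every pair of experiments, as for 17.9% of all genes; since both were chosen for large changes in PGK12.1, nothing is read from this. The excess of the PGK12.1 change over the WD44 change was 0.715 (SE 0.173, 95% interval 0.33 to 1.10) for *H60b* and 0.52 (SE 0.0918, 0.32 to 0.73) for *Raet1d* on the log2 scale, given with no test. These intervals take no account of the choice of the genes either. For the single RNAi experiments of PGK12.1, which match WD44 in dose and time, the differences were 0.585 (SE 0.123) and 0.60 (SE 0.0816). Experiment 4 of PGK12.1 was the closest to WD44 in *Kdm6a* loss (-0.96 against -0.94 and -0.92) and in array median. In it *H60b* changed by 0.93 and *Raet1d* by 0.74. This is 1 experiment, and the part of *Kdm6a* loss or array scale in the difference between the lines was not tested.

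Double RNAi was compared with single RNAi within PGK12.1. *H60b* had a mean log2 change of 1.01 after double and 0.75 after single RNAi, a difference of 0.26 (SE 0.191, 95% interval -0.18 to 0.70, adjusted p = 0.741). That difference rested on experiment 1, without which it was -0.05. *Raet1d* had means of 0.555 and 0.71, a difference of -0.155 (SE 0.0954, -0.37 to 0.06, adjusted p = 0.678). Neither passed the test, nor did any other gene (limma called 0.0%, with 1360 genes at an unadjusted p under 0.05, and 1 gene with its trend and robust options). With 2 experiments a side, these intervals leave room for differences of either direction.

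The changes of the genes around the pair were then read from the same fit. Between the start of *Raet1e* and the end of *Raet1d*, RefSeq lists 5 genes beside the 3 ligand genes, none with a probe set of its own here. Of the 3 nearest genes on each side, 1 a side was measured. On the side of *Raet1e*, the protein-coding gene *E030030I06Rik* (chr10:22113050-22149270) rose in PGK12.1, with log2 changes of 0.49, 0.37, 0.15 and 0.40 and a mean of 0.35 (SE 0.0563, limma adjusted p = 0.00817). In WD44 its changes were 0.03 and 0.01 (mean 0.02, adjusted p = 0.935), and the difference between the lines was 0.33 (adjusted p = 0.11). Its call in PGK12.1 was lost with every probe set as a feature of its own (adjusted p = 0.0503) and with the single RNAi experiments only (0.275, adjusted p = 0.161).

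On the side of *Raet1d*, the long noncoding RNA Gm10825 (chr10:22402813-22407470) had log2 changes of 0.64 and 0.50 after double and 0.14 and 0.06 after single RNAi in PGK12.1. Its mean of 0.335 (SE 0.0881) had an adjusted p of 0.0559. It was called in 4 of 15 alternatives, among them without experiment 4 (0.43, adjusted p = 0.0422) and with double RNAi only (0.57, adjusted p = 0.0298). In WD44 its changes were -0.28 and -0.17 (mean -0.225, adjusted p = 0.408). Double minus single RNAi gave 0.47 for this gene (adjusted p = 0.487). The ligand genes, unlike this neighbour, were higher in WD44 as well, although not past the test.

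**Figure D3:**
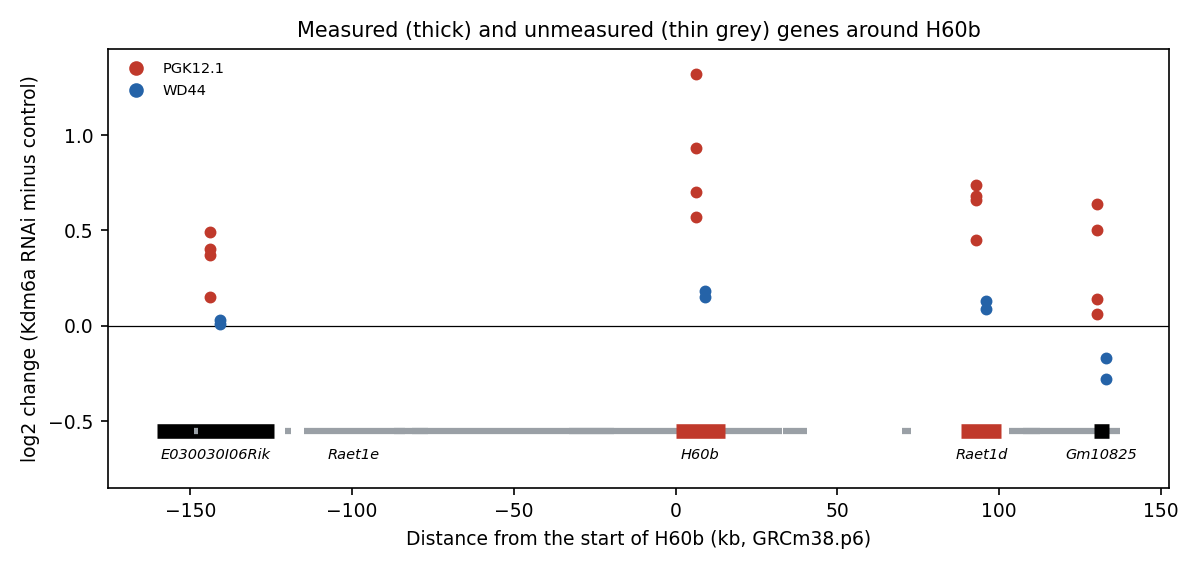
Genes around *H60b* by distance from its start (horizontal axis, kb; thick bars measured, thin grey bars not measured) with the log2 change after *Kdm6a* RNAi in each experiment (vertical axis; red PGK12.1, blue WD44). In PGK12.1 *H60b* (0.57 to 1.32) is above both measured neighbours in every experiment, and *Raet1d* (0.45 to 0.74) in all but experiment 2, where Gm10825 reached 0.50. The ligand genes, unlike the neighbours, were chosen for large rises in PGK12.1.

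**Figure D4:**
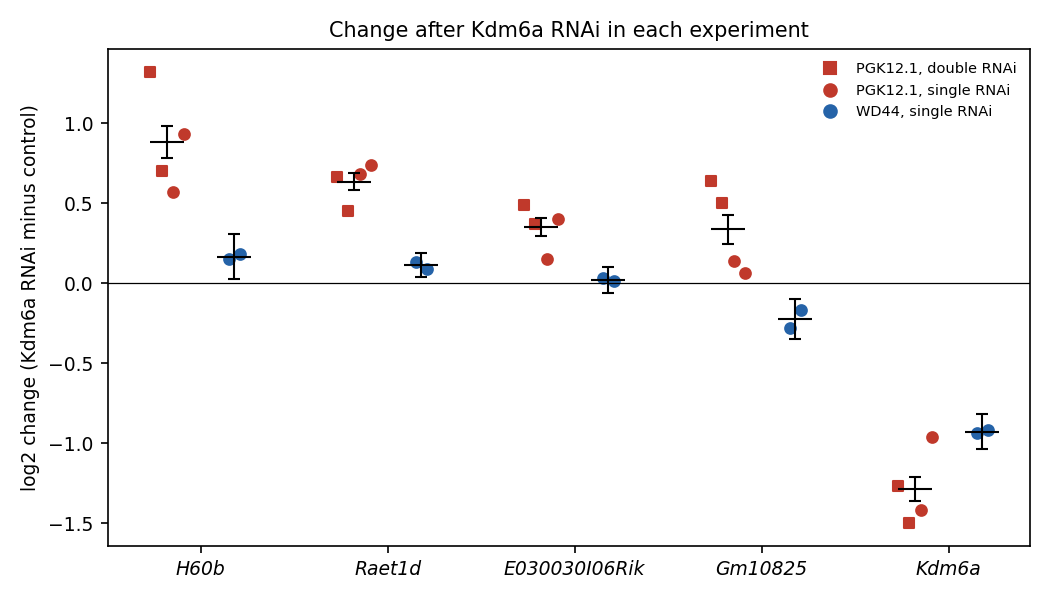
Log2 change after *Kdm6a* RNAi (vertical axis) of the measured ligand genes, their measured neighbours and *Kdm6a* in each experiment of PGK12.1 (red; squares double, circles single RNAi) and WD44 (blue), with the mean and its SE from limma (black). The points of *H60b* spread from 0.57 to 1.32 in PGK12.1 and lie at 0.15 and 0.18 in WD44.

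The pattern of the changes over the 6 experiments was compared across genes by Pearson's correlation, as a description in which all points share arrays. The pattern of *H60b* was most like those of *Pgap1* (r = 0.991), *Socs4* (0.991), *Prr12* (0.99), *Htatsf1* (0.99) and *Mep1b* (0.989), and 2.63% of genes had r of at least 0.9. *Raet1d* was most like *Oxct2a* (0.995), *Helz* (0.993), *Zc3h14* (0.992), *Parg* (0.992) and *Pcgf3* (0.988), with 2.21% of genes at 0.9 or more. The likeness was one of shape and not of size, since the mean changes of these 10 genes in PGK12.1 were between -0.09 and 0.135 and none passed the test. The 2 ligand genes correlated with each other at r = 0.827, which placed *Raet1d* at 1004 in the order of *H60b*. Both were chosen for large rises in PGK12.1, and the gap to WD44 that goes with this choice can raise r. Nothing is therefore read from this correlation.

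Most genes of the receptor side were below the minimum level in these cells. Of 12 genes of the NKG2D receptor and of NK cells, all measured, 2 passed the minimum level. *Klrk1*, which encodes NKG2D, was at 0.0335 times the array mean. Neither of the 2 passed the test in either line: *Hcst*, which encodes the NKG2D adaptor DAP10, had a mean log2 change of 0.03 in PGK12.1 (adjusted p = 0.731), and *Tyrobp*, which encodes the adaptor DAP12, of -0.0425 (adjusted p = 0.697). For comparison, limma called 5.81% of all genes in PGK12.1 (3.71% higher and 2.1% lower), where the median change was 0.0075.

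Ligands of other NK cell receptors stayed near the median of all genes. Of 6 tested, 0 passed the test in PGK12.1, with a median log2 change of -0.0038 and a highest value of 0.115 for *Nectin3*, a nectin of cell junctions (adjusted p = 0.141). The T cell costimulator *Cd80* had 0.085 (adjusted p = 0.372). Of 19 listed genes of MHC class I and antigen processing, *H2-K1*, *H2-D1*, *H2-T23* and *H2-Q7* were not measured. Among the 14 tested, 1 rose, *H2-Q4*, a nonclassical class I gene (0.175, SE 0.0428, adjusted p = 0.0442), and the median was 0.0288. That call held in 3 of 16 alternatives and was lost on leaving out any 1 of the 6 experiments (adjusted p 0.0584 to 0.138). In the same list *Psmb8*, a subunit of the immunoproteasome named here after its values were seen, had a larger change of the other sign (-0.16, -0.27, -0.33 and -0.05, mean -0.2025, adjusted p = 0.056), called without experiment 4 of PGK12.1 (-0.25, adjusted p = 0.0447).

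Of 21 listed genes that are reported regulators of NKG2D ligands, *Trp53*, *Hsf1* and *Nfkb1* were not measured. Among the 18 tested, 1 rose in PGK12.1 and the median was 0.04. It was *E2f2*, an E2F transcription factor of the cell cycle, with log2 changes of 0.31, 0.21, 0.26 and 0.21 and a mean of 0.2475 (SE 0.0441, adjusted p = 0.0125), against 0.025 in WD44 (adjusted p = 0.886). The call held without each single experiment and was lost with the single (adjusted p = 0.157) or the double (0.0958) RNAi experiments only and with every probe set as its own feature (0.0503). Of 20 tested genes of GPI anchor synthesis and attachment, 1 rose, *Pigl*, the deacetylase of an early step (0.205, SE 0.0419, adjusted p = 0.0225), with a median of -0.0075. It was no longer called without any 1 of the PGK12.1 experiments (adjusted p 0.0547 to 0.0907). No gene of these lists passed the test in WD44 or for double minus single RNAi.

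**Figure D5:**
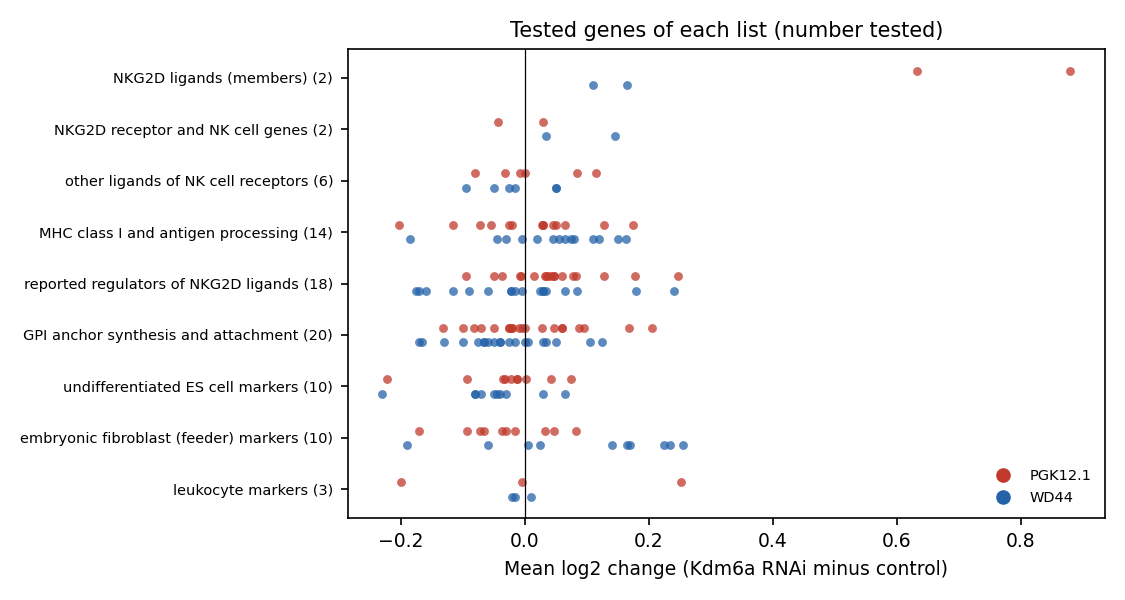
Mean log2 change after *Kdm6a* RNAi (horizontal axis) of each tested gene of the lists (rows, with the number tested) in PGK12.1 (red) and WD44 (blue). The 2 ligand genes (0.63 and 0.88 in PGK12.1) stand to the right of every gene of the other lists, which reach 0.2525 in PGK12.1 and 0.255 in WD44. They were chosen for large rises in PGK12.1, so nothing is read from their place there.

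Markers of other cells were read beside these results. The summed level of 12 feeder fibroblast markers after *Kdm6a* RNAi was 0.938 to 1.04 times that of the control in PGK12.1 and 1.05 times in both WD44 experiments. No feeder marker passed the test in either line. The 10 tested feeder markers had a median log2 change of -0.0338 in PGK12.1 and 0.1525 in WD44, where that of all genes was -0.005. In WD44 they ranged from -0.19 (*Thy1*) to 0.255 (*Col6a1*). *Fbln1*, with the highest mean level of them (1.22), had -0.06 there. The sum of the 7 measured leukocyte markers, of which 3 passed the minimum level, was 1.03 to 1.17 times the control in the PGK12.1 experiments, in which the ligand genes were higher, and 0.951 to 1.08 times in WD44. Of these, the macrophage marker *Cd68* had 0.2525 in PGK12.1 (adjusted p = 0.0553). It was called in 4 of 16 alternatives, among them without experiment 4 (0.32, adjusted p = 0.0379). The marker *Cd14* had -0.20 (adjusted p = 0.116) and was called in 0 of 15. With a mean level of 1.28 times the array mean, *Cd68* made up most of that sum, and the other measured markers had mean log2 changes of -0.2075 (*Lyz2*) to 0.02 (*Ptprc*) in PGK12.1. The part of these cells in the rise of *H60b* and *Raet1d* was not tested.

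The 10 ES cell markers were high in all arrays, with sums of 73.9 to 100.0 times the array mean in PGK12.1 and 60.9 to 63.8 in WD44. Among them 1 fell in PGK12.1, *Utf1*, a chromatin factor of undifferentiated cells (-0.2225, SE 0.0467, adjusted p = 0.0248), a call lost without experiments 1, 2 or 3 of PGK12.1 or either of WD44 (adjusted p 0.0541 to 0.0942).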

How the data were processed

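RNA on Affymetrix Mouse Gene 1.0 ST arrays was analysed. The deposited values are on the log2 scale and came from RMA in Affymetrix Expression Console, per the methods and the submitters' processing notes. Not given in the sources used here were the software versions and whether all arrays went through 1 normalization. Groups and experiment numbers came from the labels. Of 35556 probe sets, 21789 had 1 gene symbol in the platform annotation, 1621 had several and 12146 none. Only the first were named, probe sets of a gene were averaged (999 genes), and 19919 of 19938 genes matched the RefSeq table of GRCm38.p6. A gene was tested if its linear value, divided by the mean of the array and averaged over the 12 arrays, reached 0.1 (4609 lay below).

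The test was limma 3.58.1 in R 4.3.3 on all 12 arrays with the experiment as a block (residual degrees of freedom 4, prior 5.67), with p-values adjusted by Benjamini-Hochberg over all 15329 genes at 0.05. SEs and intervals are from this fit, except that double minus single RNAi came from a fit with separate effects of double and single RNAi, and values for a subset of arrays from a fit of that subset. SDs are between experiments. The pairing comes from the labels, which give both arrays of an experiment 1 number, and the methods use paired tests. The 2 arrays of an experiment deviated together from their groups, with correlations of 0.828 to 0.972 in PGK12.1, where the array scales raise them, and of 0.265 in WD44. The script was tested on simulated data. Figures used matplotlib 3.10.9 in Python 3.11.15.

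The ligand genes and all gene lists were chosen with earlier results of these data known. The text names all ligand genes, the 5 genes most like each measured one, up to 4 called genes of each list (otherwise the 2 with the largest change in PGK12.1) and up to 3 neighbours a side. Alternatives were no block, other minimum levels, every probe set, other scalings, limma's trend and robust options, subsets of the arrays, leaving out each experiment, and the methods' t-test. The number of arrays limits the precision.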

Additional observations from a re-analysis of the deposited data

Results flagged for a closer look

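The changes of 28 genes were looked at, and 5 had 1 PGK12.1 experiment set apart by Dixon's 95% critical value, which by its construction does so in about 1 of 20 groups. The log2 change in 1 PGK12.1 experiment lay far from the others for *Cd80* (0.24 in experiment 4, against 0.02 to 0.05), *Thy1* (-0.52 in experiment 4, against -0.10 to -0.02), *Col1a1* (-0.20 in experiment 1, against -0.07 to -0.05), *Cd68* (0.04 in experiment 4, against 0.30 to 0.34) and *Oxct2a* (-0.14 in experiment 2, against -0.08 to -0.07). Neither *H60b* nor *Raet1d* was among them.

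The changes of 6 genes, *Cd80* and *Col1a1* again among them, had one sign in all PGK12.1 experiments and the other in both of WD44. The share of all genes with such opposite signs was not counted, so nothing is read from the number. The difference, PGK12.1 minus WD44, was 0.56 for Gm10825 (limma adjusted p = 0.104), 0.27 for *Pigl* (0.102), 0.18 for *Cd80* (0.279), 0.13 for *Nectin3* (0.327), -0.23 for *Col1a1* (0.149) and -0.26 for *Psmb8* (0.158), so none passed the test of the difference.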

How the results depend on the processing

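The minimum level of 0.25 left out *H60b*, whose mean level was 0.243. Over all alternatives that held the gene, the mean log2 change of *H60b* ranged from 0.733 to 1.01 in PGK12.1 and, for WD44, from 0.15 to 0.185 (adjusted p 0.283 to 1.0), and that of *Raet1d* 0.555 to 0.71 and 0.09 to 0.153 (0.299 to 1.0). Double minus single RNAi changed sign for *H60b* (-0.05 to 0.57 on leaving out 1 experiment; -0.05 without experiment 1 of PGK12.1) and not for *Raet1d* (-0.26 to -0.05). Without the replicate block, *Kdm6a* in PGK12.1 kept its change of -1.29 with an adjusted p of 1.0, and 0 genes were called in either direction; that fit carries the array scales in its spread, and it also ended the calls of *E030030I06Rik*, *E2f2*, *H2-Q4*, *Pigl* and *Utf1*. *Kdm6a* in WD44 passed the test with a minimum level of 0.25 (-0.93, adjusted p = 0.0224), quantile normalization (-0.95, 0.0242), the trend and robust options (-0.93, 0.00287) and without experiment 4 of PGK12.1 (-0.92 to -0.94 on leaving out 1 experiment).

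The number of genes called higher and lower in PGK12.1 (568 and 322) was 270 and 182 with no minimum level, 222 and 139 with every probe set, 1102 and 545 with trend and robust options, 332 and 205 from the PGK12.1 arrays alone, 43 and 59 from single and 117 and 65 from double RNAi, 0 and 0 with the methods' t-test after adjustment (1517 and 928 before it), and 198 to 396 and 152 to 211 on leaving out 1 experiment. With a minimum level of 0.25, 931 were higher. In WD44 the trend and robust options called 2 higher and 10 lower, the minimum level of 0.25 and quantile normalization 1 lower each, and leaving out 1 experiment 0 to 1 lower. The causes were not tested.

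The limits are the 2 WD44 experiments, the single probe set of each measured ligand gene, and the choice of the genes on these arrays.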
